A study of Mus musculus with 35 samples.

Results

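The genes described here are 42 mouse genes of the extracellular matrix and of fibrosis, named by symbol and looked up in a table of raw counts for 55413 genes, which held all 42. They comprise 6 fibrillar collagens, 6 genes of collagen VI and of the fibril-associated and multiplexin collagens, 6 basement membrane genes, 6 genes of elastic fibres and crosslinking, 5 proteoglycans and matricellular proteins, 5 matrix proteases, 4 protease inhibitors, 3 genes of transforming growth factor beta (TGF-beta) and its storage, and Acta2, which encodes smooth muscle actin. Counts sufficed for 39 of them, which were tested among 15297 genes. Lox, Timp1 and Tgfb1 were too low and are given by their counts.

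The matrix was followed in livers of C57Bl6 mice, sequenced from the 3' ends of messenger RNA. Diethylnitrosamine (DEN) is a carcinogen that hepatocytes activate, and it gives liver tumours after a single early dose. Mice of 3 groups received DEN once at postnatal day 14, at 25 mg/kg into the peritoneum. In the first of these, 4 mice were killed at day 133. In the second, 6 mice were then given a control antisense oligonucleotide (ASO) at 50 mg/kg, also into the peritoneum and 2 times a week, and were killed at day 260. In the third, 6 mice received an ASO against Smyd3, a protein methyltransferase, at the same dose over the same days. The last group held 5 mice with no treatment, killed at day 260 and labelled normal liver. The labels call the DEN tissue tumour. Whether nodules were cut away from the surrounding liver is not given in the sources used here. An untreated group of day 133 and a DEN group without ASO at day 260 were not analysed here. Where groups differ in more than 1 of age, DEN and ASO injection, these therefore cannot be told apart. Both ASO groups differ from the untreated mice of day 260 in DEN and in ASO injection. Each value below belongs to 1 mouse, and the 2 libraries of each control-ASO mouse and the 1 to 3 libraries of each Smyd3-ASO mouse stood merged in the deposited counts.

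Collagens are made as procollagen chains, trimmed, and assembled into fibrils, networks or filaments, and lysyl oxidases then crosslink them. In liver, fibrillar collagen is laid down mainly by activated hepatic stellate cells and portal fibroblasts, which also switch on smooth muscle actin. Sinusoids normally lack a dense basement membrane. Matrix metalloproteinases (MMPs) cut matrix proteins, tissue inhibitors of metalloproteinases (TIMPs) restrain them, and TGF-beta is the main known inducer of collagen genes in stellate cells.

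Several of the listed genes are neighbours in the genome. Coordinates are for mouse build GRCm38 (mm10), genes from GENCODE vM21 and promoter windows from RefSeq (GRCm38.p6). Col4a1 (chr8:11198423-11312826, minus strand) and Col4a2 (chr8:11312805-11449287, plus strand) start head to head, and the 2 genes overlap by 22 bases. Col3a1 and Col5a2 lie 24.6 kb apart on chromosome 1, and Col6a2 and Col6a1 lie 85.2 kb apart on chromosome 10. Mmp13 and Mmp12 lie 61.0 kb apart on chromosome 9, on the same strand, and both had almost no counts in untreated livers and more in the 2 groups given ASOs. The 100 bases before the start of each of these proteases are therefore shown 5' to 3', Mmp13 at chr9:7272414-7272513 and Mmp12 at chr9:7347274-7347373, both on the plus strand. The Mmp13 stretch lies outside any annotated gene. The Mmp12 stretch precedes 1 of the starts that RefSeq gives for this gene and lies in an intron of longer Mmp12 transcripts. Capitals mark matches to TGANTCA, the site known to be read by the transcription factor AP-1, searched on both strands.
Mmp13: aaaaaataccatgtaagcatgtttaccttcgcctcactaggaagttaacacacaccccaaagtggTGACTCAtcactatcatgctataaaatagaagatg
Mmp12: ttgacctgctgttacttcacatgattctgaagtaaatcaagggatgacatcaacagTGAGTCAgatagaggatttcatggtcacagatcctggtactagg
The Mmp13 match runs from -35 to -29 and the Mmp12 match from -44 to -38, counted from the start of transcription. Windows of 300 bases (250 before the start and 50 after it) were found for 29 of the 42 genes. Among them only Col6a1 held another match, from -90 to -84. Over all 32851 windows of that length, 7.81% held the motif.

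The total count per mouse ran from 4556484 to 20258619, with the 4 DEN mice of day 133 the shallowest (4556484 to 6447397). The 10 most abundant genes took 24.9% to 32.2% of the counts in untreated livers, 17.4% to 19.1% at day 133, 17.3% to 22.9% with control ASO and 9.46% to 15.7% with Smyd3-ASO. Because of this, levels are given as counts scaled to a common depth by the trimmed mean of M-values (TMM), in the usual unit CPM,, and changes as log2 fold changes scaled the same way, so that each change is relative to the bulk of genes. Under TMM the median change of all tested genes was between 0.00 and 0.06. Scaling by plain library totals instead put it at 0.90 in control ASO over untreated, 0.96 in Smyd3-ASO over untreated, 0.59 in day 133 over untreated, 0.28 in control ASO over day 133 and 0.04 in Smyd3-ASO over control ASO. Directions against untreated liver are therefore read relative to that median, and calls that library totals ended are named. Adjusted p-values come from edgeR's quasi-likelihood test with Benjamini-Hochberg adjustment over all 15297 genes, a call means an adjusted p under 0.05, and ± marks the standard error of a log2 change. The hepatocyte markers checked against the liver label summed to between 30025 and 160848 CPM in every mouse. Smyd3 itself, measured at 3.87 ± 0.597 CPM (SD, n = 6) with control ASO, stood at 0.325 ± 0.288 CPM (SD, n = 6) with Smyd3-ASO, a log2 change of -3.65 ± 0.47 (exact two-sided permutation p = 0.00216, the smallest that 6 against 6 mice allow).

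**Figure D1:**
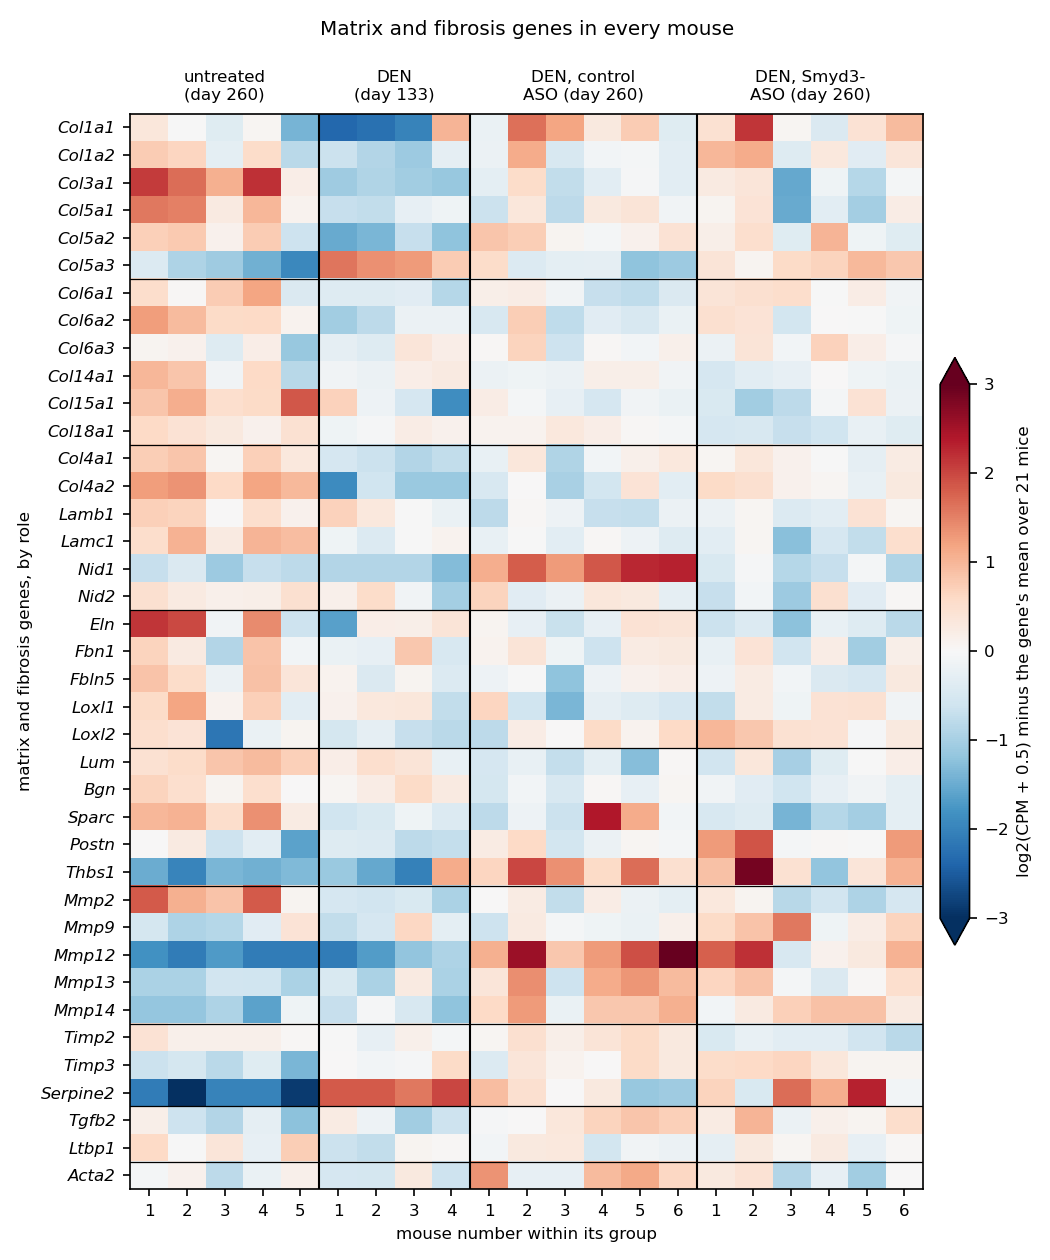
Level of each of the 39 tested genes (rows, grouped by role) in each of the 21 mice (columns, grouped by treatment), as log2(CPM + 0.5) minus the gene's mean over all mice; red is above and blue below that mean. Nid1 is red in the 6 control-ASO mice and in no other group, Mmp12 is red in most mice given either ASO, and Serpine2 is blue in the 5 untreated mice.

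Smyd3-ASO changed few of the matrix genes relative to control ASO. Of the 39 tested, 2 were higher (Col5a3, Mmp9), 3 were lower (Nid1, Col18a1, Timp2) and 34 did not pass. No tested gene of the 39 had all Smyd3-ASO mice above the control-ASO mice, against 5.27% of all genes. Over all tested genes 26.1% were called in this comparison, 13.3% higher and 12.9% lower. The median change of the 39 genes was -0.08, against 0.01 over all genes. All 3 lower genes had their 6 Smyd3-ASO mice below the 6 control-ASO mice, and 5.83% of all genes showed that separation. The calls of Nid1, Col18a1, Timp2 and Col5a3 held under every alternative analysis and with any 1 mouse left out. The call of Mmp9 did not.

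Relative to untreated livers, 3 of the 5 matrix proteases were higher in control-ASO livers, Mmp2 was lower and Mmp9 did not pass. Of the 39, 9 were called higher (Nid1, Thbs1, Mmp12, Mmp13, Mmp14, Timp3, Serpine2, Tgfb2, Acta2) and 13 lower (Col3a1, Col5a1, Col6a2, Col15a1, Col4a1, Col4a2, Lamb1, Lamc1, Eln, Fbln5, Lum, Bgn, Mmp2), against 23.7% and 22.2% of all genes (45.9% in either direction). The mice of the groups did not overlap for 4 higher and 4 lower genes, against 13.8% and 13.8% of all genes. The median of the 39 was -0.23, and that of all genes 0.06. With library totals the counts became 17 higher and 1 lower. All 9 higher calls stayed, and Col3a1 alone stayed lower.

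The Smyd3-ASO livers stood apart from untreated livers in 10 higher and 16 lower genes, against 24.4% and 23.2% of all genes (47.6% in either direction). For 7 higher and 7 lower genes the groups did not overlap, against 13.9% and 14.6% of all genes. The median of the 39 was -0.50, and that of all genes 0.06. Library totals gave 15 higher and 2 lower, and all 10 higher calls stayed, with Eln and Sparc staying lower. Genes called here and not in control ASO over untreated were Col5a3, Postn and Mmp9 (higher) and Col14a1, Col18a1, Sparc and Timp2 (lower). Both comparisons use the same 5 untreated mice, so the direct comparison is Smyd3-ASO over control ASO, where Col5a3, Mmp9, Col18a1 and Timp2 were called and Postn, Col14a1 and Sparc were not. Nid1, Lamb1 and Acta2 were called with control ASO and not with Smyd3-ASO, and of these Nid1 alone was called in the direct comparison.

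At day 133, before any ASO, 3 matrix genes were higher than in untreated livers (Col5a3, Timp3, Serpine2) and 11 were lower (Col1a2, Col3a1, Col5a1, Col5a2, Col6a1, Col6a2, Col4a1, Col4a2, Lamc1, Sparc, Mmp2), against 15.1% and 16.6% of all genes (31.6% in either direction). The groups did not overlap for 3 higher and 9 lower genes, against 12.6% and 14.5% of all genes. The median of the 39 was -0.39, and that of all genes 0.00. With library totals 7 were higher and 7 lower, and 3 and 7 of the calls were shared with those under TMM. The mice differed in age here as well as in DEN. From day 133 to the control-ASO livers of day 260, 9 genes were higher (Col3a1, Col5a2, Col4a1, Col4a2, Nid1, Mmp12, Mmp13, Mmp14, Acta2) and 3 lower (Col5a3, Bgn, Serpine2), against 14.4% and 12.6% of all genes (27.0% in either direction). The groups were separate for 4 higher and 3 lower genes, against 11.3% and 10.0% of all genes. The median of the 39 was 0.47, and that of all genes 0.03. Library totals gave 15 higher and 2 lower, with 9 and 2 shared. The number called higher fell to 5 without control-ASO mouse 5 or without mouse 6.

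**Figure D2:**
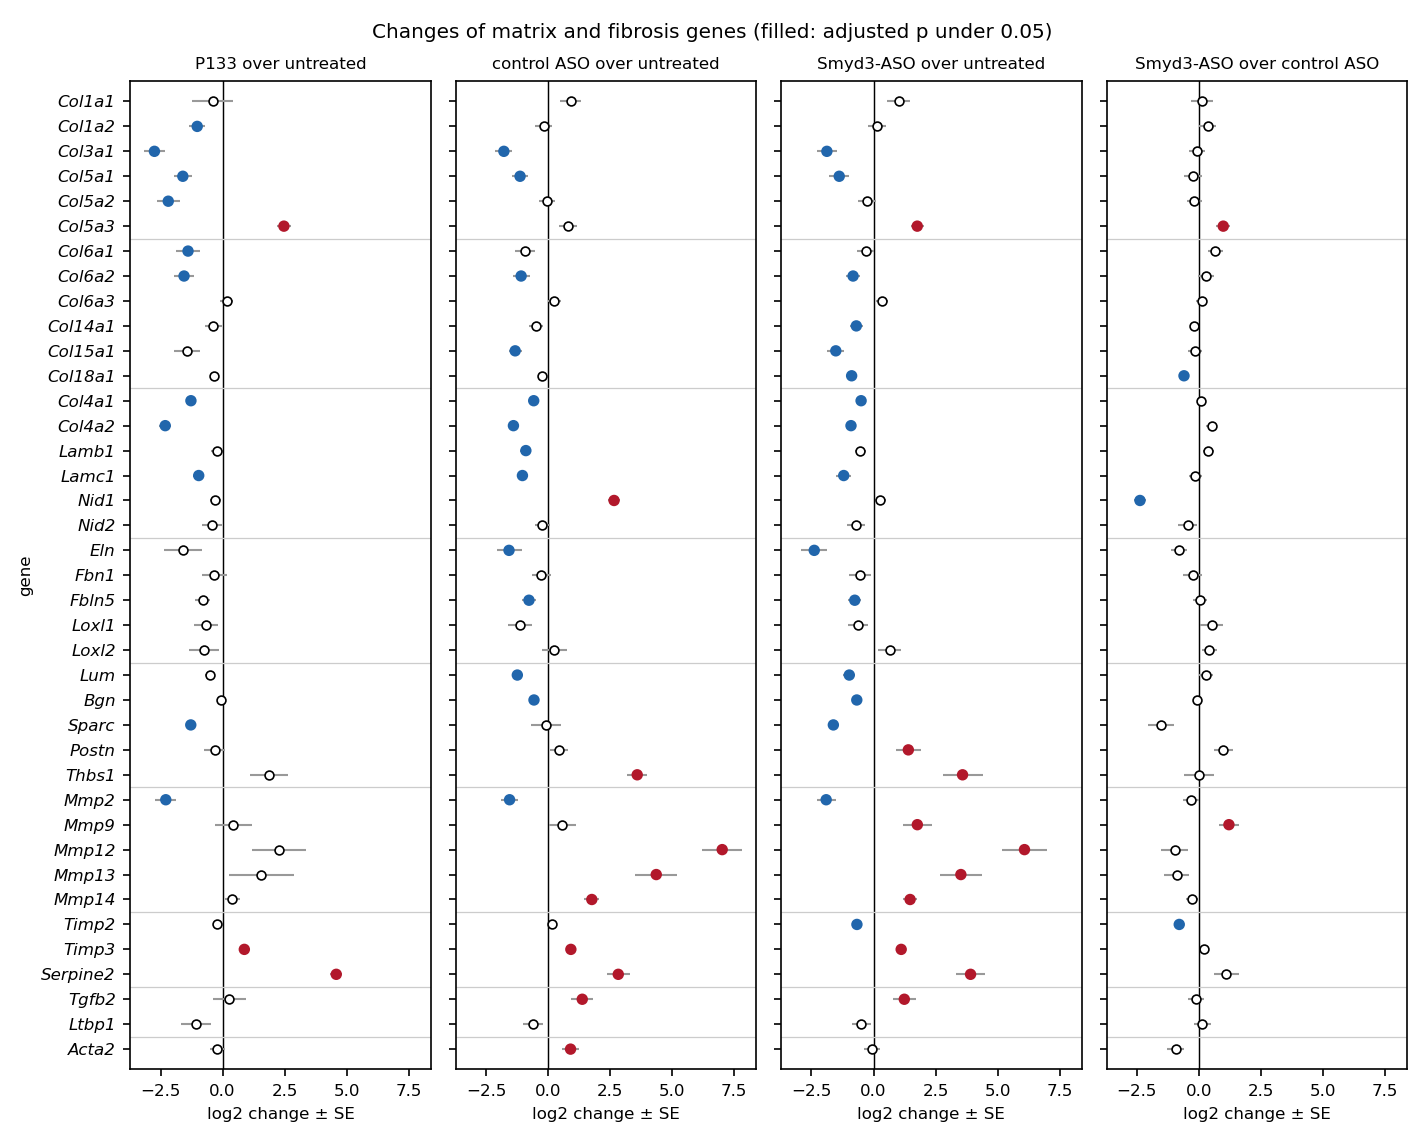
Log2 change ± SE of each of the 39 genes (rows, by role) in 4 comparisons, TMM scaling; filled red and blue points passed an adjusted p of 0.05 and open points did not. In Smyd3-ASO over control ASO 5 points are filled, in control ASO over untreated 22, in Smyd3-ASO over untreated 26 and in day 133 over untreated 14. With library totals, 1 of the 13 blue points of control ASO and 2 of the 16 of Smyd3-ASO over untreated stay called.

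Nid1 encodes nidogen 1, which links the laminin and collagen IV networks of basement membranes. It measured 5.36, 6.51, 3.89, 5.36 and 4.94 CPM in the 5 untreated mice and 4.62, 4.57, 4.65 and 3.31 CPM in the 4 mice of day 133. In the 6 control-ASO mice it ran from 19.5 CPM through a median of 33.1 to 45.9 CPM, and in the 6 Smyd3-ASO mice from 4.54 CPM through 5.81 to 8.73 CPM. Every control-ASO mouse lay above every mouse of the other 3 groups, and the Smyd3-ASO mice overlapped the untreated mice. The change in control ASO over untreated was 2.66 ± 0.24 (adjusted p = 1.74e-06), and over day 133 it was 2.95 ± 0.28 (adjusted p = 1.77e-05). Smyd3-ASO over control ASO gave -2.38 ± 0.25 (adjusted p = 3.24e-05), which stayed between -2.49 and -2.26 with any 1 mouse left out. Against untreated livers the Smyd3-ASO livers did not pass, with 0.26 ± 0.22 (adjusted p = 0.349), although library totals gave 1.17 (adjusted p = 0.0017).

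Its relative Nid2 did not pass in any of the 5 comparisons, with a change of -0.46 ± 0.38 in Smyd3-ASO over control ASO. Nid2 counts were low (3 to 51 per mouse), and the gene overlaps Rtraf on the opposite strand, whose counts were far higher (13133 against 363 over all mice); whether strand was used in counting is not given in the sources used here. Collagen IV, the sheet-forming collagen of basement membranes, was lower in all 3 DEN groups than in untreated livers under TMM. Col4a2 measured 22.4, 24.1, 14.2, 21.5 and 18.4 CPM in untreated livers and 2.102, 5.93, 3.99 and 3.94 CPM at day 133. It ran from 4.40 CPM through a median of 6.84 to 12.3 CPM with control ASO and from 7.79 CPM through 10.7 to 13.8 CPM with Smyd3-ASO. All 16 DEN mice lay below the lowest untreated mouse. The change was -2.31 ± 0.25 at day 133 (adjusted p = 8.23e-06), -1.40 ± 0.22 with control ASO (adjusted p = 1.77e-04) and -0.91 ± 0.18 with Smyd3-ASO (adjusted p = 0.001). Under library totals these became -1.74, -0.56 and 0.00, and only the first still passed.

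Col4a1, which shares its start region with Col4a2, was also lower at day 133 than in untreated livers. It measured 31.0, 33.1, 19.3, 30.6 and 23.0 CPM in untreated livers and 12.8, 11.7, 9.75 and 10.9 CPM at day 133, with no overlap (-1.28 ± 0.18, adjusted p = 8.85e-05). With control ASO it was -0.58 ± 0.21 (adjusted p = 0.0359) and with Smyd3-ASO -0.50 ± 0.16 (adjusted p = 0.0216), calls that leaving out any 1 of 5 and any 1 of 4 of the 11 mice ended and that library totals turned to 0.26 and 0.39. From day 133 to control ASO, Col4a1 rose by 0.70 ± 0.22 (adjusted p = 0.0273) and Col4a2 by 0.93 ± 0.31 (adjusted p = 0.0394), and each call was lost when any 1 of 6 of the 10 mice was left out. Laminin chains are the other network of basement membranes. Lamc1 fell in all 3 DEN groups relative to untreated livers, by 0.96 at day 133, 1.03 with control ASO and 1.202 with Smyd3-ASO on the log2 scale, and under library totals none of the 3 passed (-0.37, -0.19 and -0.26). Lamb1 passed edgeR's test with all mice only in control ASO over untreated (-0.90 ± 0.22, adjusted p = 0.00444). Library totals gave -0.06 there, and the call was also lost at equal depth (-0.73, adjusted p = 0.16). In Smyd3-ASO over untreated Lamb1 changed by -0.54 (adjusted p = 0.0546). Limma voom called that change (-0.58, adjusted p = 0.0434), as did leaving out Smyd3-ASO mouse 5 or untreated mouse 3 or 5. Control ASO over day 133 was called without control-ASO mouse 2 (-0.80, adjusted p = 0.0435).

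**Figure D3:**
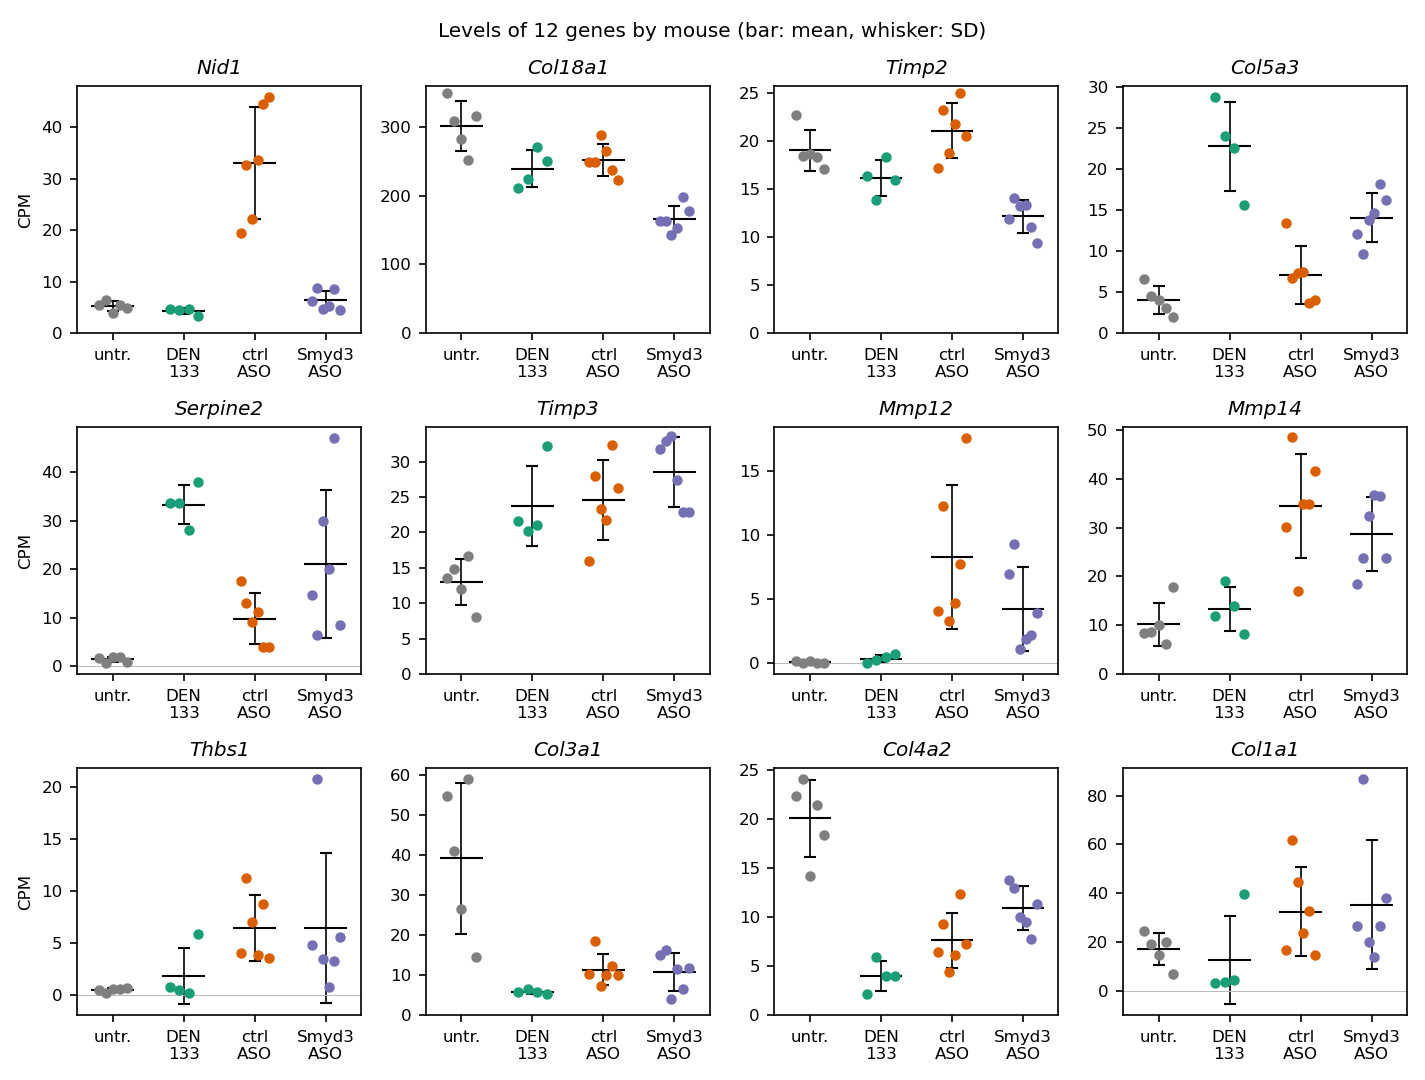
CPM of 12 genes in each mouse (points) of the untreated, DEN day 133, control-ASO and Smyd3-ASO groups, with the mean (bar) and SD (whisker); each panel has its own axis, which includes 0. The control-ASO mice stand above the others for Nid1, the Smyd3-ASO mice stand below the control-ASO mice for Col18a1 and Timp2, and 1 mouse of day 133 stands far above the other 3 for Col1a1 and Thbs1.

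Among the fibrillar collagens, which form the tensile fibres of scar and portal tracts, Col3a1 fell in all 3 DEN groups relative to untreated livers. It measured 54.8, 41.1, 26.5, 59.0 and 14.4 CPM in untreated livers and 5.68, 6.44, 5.76 and 5.36 CPM at day 133, where no mouse reached the untreated range. It ran from 7.29 CPM through a median of 10.1 to 18.6 CPM with control ASO and from 3.95 CPM through 11.6 to 16.2 CPM with Smyd3-ASO, and in both groups some mice passed the lowest untreated mouse. The change was -2.75 ± 0.42 at day 133 (adjusted p = 0.00116), -1.78 ± 0.35 with control ASO (adjusted p = 0.00154) and -1.88 ± 0.41 with Smyd3-ASO (adjusted p = 0.0026). With library totals the first 2 still passed (-2.20 and -0.97), and the third did not (-0.96, adjusted p = 0.0862). From day 133 to control ASO it rose by 0.97 ± 0.24 (adjusted p = 0.0076), a call lost in a single fit over all 4 groups (adjusted p = 0.0912).

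Col5a1, a chain of the collagen that sets fibril diameter, measured 13.1, 12.5, 4.98, 8.55 and 4.41 CPM in untreated livers and 2.31, 2.20, 3.32 and 3.63 CPM at day 133. With control ASO it ran from 2.14 through 4.38 to 5.47 CPM, overlapping the 2 lowest untreated mice, and with Smyd3-ASO from 1.08 through 3.73 to 5.55 CPM. It fell by 1.60 at day 133 (SE 0.36, adjusted p = 0.00367), by 1.13 with control ASO (SE 0.33, adjusted p = 0.0132) and by 1.38 with Smyd3-ASO (SE 0.41, adjusted p = 0.0144), of which only the first passed with library totals. Col5a2 passed only in the comparisons that involve day 133. It fell by 2.19 at day 133 over untreated (SE 0.47, adjusted p = 0.00244) and rose by 2.16 ± 0.39 from day 133 to control ASO (adjusted p = 0.00118), on 2 to 5 counts per mouse at day 133.

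Col5a3, the third chain of that collagen, went the other way. It measured 6.65, 4.50, 4.05, 3.04 and 2.00 CPM in untreated livers and 28.8, 24.1, 22.6 and 15.6 CPM at day 133, and these ranges did not overlap. With control ASO it ran from 3.65 CPM through a median of 7.0 to 13.5 CPM, and with Smyd3-ASO from 9.62 CPM through 14.2 to 18.2 CPM. The 2 ASO groups overlapped through control-ASO mouse 1, the highest of its group. The change was 2.47 ± 0.28 at day 133 over untreated (adjusted p = 2.19e-05), -1.66 ± 0.32 from day 133 to control ASO (adjusted p = 0.00315) and 0.97 ± 0.28 in Smyd3-ASO over control ASO (adjusted p = 0.0188). Over untreated livers the Smyd3-ASO livers were higher by 1.76 ± 0.27 (adjusted p = 1.58e-04), and the control-ASO livers did not pass (0.80 ± 0.36, adjusted p = 0.0856). The latter change was called with library totals (1.59, adjusted p = 0.00143), in one fit over all 4 groups (adjusted p = 0.0413) and with replicate number as a block (adjusted p = 0.00464). Leaving out control-ASO mouse 5 (adjusted p = 0.0453) or untreated mouse 1 (adjusted p = 0.0354) also gave a call.

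The chains of collagen I, the most abundant collagen of scar tissue, did not pass against untreated livers in either ASO group. Col1a1 was 24.7, 19.3, 14.9, 20.1 and 7.08 CPM in untreated livers, ran from 14.9 through 28.3 to 61.7 CPM with control ASO and from 14.1 through 26.6 to 86.7 CPM with Smyd3-ASO. The changes were 0.91 ± 0.42 (adjusted p = 0.103) and 1.01 ± 0.46 (adjusted p = 0.0901), and both were called with library totals (1.73 and 1.96) and with DESeq2 (adjusted p = 0.0336 and 0.0324). At day 133 the 4 mice read 3.36, 3.73, 4.43 and 39.9 CPM, so that mouse 4 alone exceeded every untreated mouse. The change at day 133 was -0.39 ± 0.83 (adjusted p = 0.758) with mouse 4 and -2.16 (adjusted p = 0.00163) without it. The rise from day 133 to control ASO was likewise 1.30 ± 0.82 (adjusted p = 0.282) with that mouse and 3.08 (adjusted p = 0.00683) without it. Mouse 4 did not stand apart in the other chain, Col1a2, which read 7.15, 5.93, 5.10 and 9.31 CPM at day 133 and fell by 1.02 relative to untreated livers (SE 0.33, adjusted p = 0.0335). That call was lost when any 1 of 6 of the 9 mice was left out and under library totals (-0.47). Col1a1, Col1a2 and Col3a1 changed by 0.12 ± 0.46, 0.35 ± 0.33 and -0.08 ± 0.31 in Smyd3-ASO over control ASO, none of which passed.

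Col18a1, whose C-terminal fragment is endostatin, is a multiplexin of vessel and epithelial basement membranes that hepatocytes also make. It measured 350, 309, 282, 252 and 316 CPM in untreated livers and 212, 225, 271 and 251 CPM at day 133. With control ASO it ran from 222 CPM through a median of 248.9 to 289 CPM and with Smyd3-ASO from 142 CPM through 163 to 198 CPM. All 6 Smyd3-ASO mice lay below every other mouse of the study. The change in Smyd3-ASO over control ASO was -0.61 ± 0.12 (adjusted p = 0.00249), between -0.66 and -0.56 with any 1 mouse left out. Over untreated livers it was -0.88 ± 0.14 (adjusted p = 1.91e-04), which library totals brought to 0.01.

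Col15a1, the other multiplexin, measured 5.79, 7.10, 4.51, 4.78 and 12.4 CPM in untreated livers and ran from 2.02 through 2.69 to 3.68 CPM with control ASO, without overlap. It read 5.26, 2.71, 1.99 and 0.473 CPM at day 133 and ran from 1.24 through 2.38 to 4.30 CPM with Smyd3-ASO. At day 133 the change was -1.44 ± 0.51 and did not pass (adjusted p = 0.0522), though DESeq2 (adjusted p = 0.0172), limma voom (adjusted p = 0.0304), one fit over all 4 groups (adjusted p = 0.0187) and leaving out day 133 mouse 1 (-2.02, adjusted p = 0.0114) called it. It fell by 1.33 with control ASO (SE 0.26, adjusted p = 9.33e-04) and by 1.52 with Smyd3-ASO (SE 0.34, adjusted p = 0.00261), and neither passed with library totals (-0.48 and -0.65). Collagen VI forms beaded filaments around cells. Col6a2 measured 5.04, 4.02, 2.96, 3.04 and 2.00 CPM in untreated livers and 0.631, 0.847, 1.55 and 1.58 CPM at day 133, with no overlap (-1.55 ± 0.39, adjusted p = 0.00661). It was also lower with control ASO (-1.09 ± 0.35, adjusted p = 0.0191) and with Smyd3-ASO (-0.83 ± 0.29, adjusted p = 0.0324), and library totals ended all 3 calls (-0.997, -0.26 and 0.08). The control-ASO call was lost without untreated mouse 1 (-0.90, adjusted p = 0.0647), and the Smyd3-ASO call when any 1 of 6 of the 11 mice was left out. Its neighbour Col6a1 read 2.04, 1.30, 2.49, 3.48 and 0.801 CPM in untreated livers and 0.841, 0.847, 0.886 and 0.473 CPM at day 133 (-1.39 ± 0.49, adjusted p = 0.0421), on 3 to 5 counts per mouse at day 133; the call was lost when any 1 of 7 of the 9 mice was left out and under library totals (-0.82). Col6a3 passed in no comparison under TMM. With library totals it was called higher than in untreated livers at day 133 (0.74), with control ASO (1.08) and with Smyd3-ASO (1.21). Col14a1, a fibril-associated collagen, passed with all mice only in Smyd3-ASO over untreated (-0.69 ± 0.26, adjusted p = 0.0435). That call ended when any 1 of 8 of the 11 mice was left out, and library totals gave 0.15. Without untreated mouse 5, Col14a1 was also called lower with control ASO (-0.68, adjusted p = 0.00678) and at day 133 (-0.58, adjusted p = 0.0414).

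Elastic fibres consist of elastin laid on fibrillin scaffolds, and fibulins and lysyl oxidases help to assemble them. Eln measured 9.23, 8.17, 1.56, 5.36 and 0.935 CPM in untreated livers, and the 3 highest values of all 21 mice were among these. It read 0.210, 2.03, 1.99 and 2.37 CPM at day 133, ran from 0.880 through 1.59 to 2.47 CPM with control ASO and from 0.432 through 1.03 to 1.37 CPM with Smyd3-ASO. Over untreated livers it changed by -1.59 ± 0.75 at day 133 (adjusted p = 0.143), -1.57 ± 0.50 with control ASO (adjusted p = 0.0219) and -2.39 ± 0.51 with Smyd3-ASO (adjusted p = 0.00206). DESeq2 called the day 133 change (adjusted p = 0.0475), as did one fit over all 4 groups (adjusted p = 0.0377) and leaving out untreated mouse 5 (-1.85, adjusted p = 0.036). The control-ASO call was lost without untreated mouse 1 or mouse 2 and in 5 alternatives, library totals among them (-0.79), and the Smyd3-ASO call held with every alternative. Fbln5 read 5.26, 4.14, 2.33, 5.36 and 3.61 CPM in untreated livers, and 2.94, 1.86, 2.88 and 1.89 CPM at day 133. It fell by 0.77 with control ASO (SE 0.29, adjusted p = 0.0422) and by 0.76 with Smyd3-ASO (SE 0.26, adjusted p = 0.0291), which library totals turned to 0.06 and 0.14, and each call was lost when any 1 of 6 of the 11 mice was left out; day 133 did not pass (-0.81 ± 0.31, adjusted p = 0.0594).

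Fbn1, Loxl1 and Loxl2 passed in no comparison under TMM with all mice. Loxl2 was called higher with library totals in Smyd3-ASO over untreated (1.54, adjusted p = 0.0205) and in control ASO over day 133 (1.28, adjusted p = 0.0376). The latter was also called under TMM without control-ASO mouse 1 (1.18, adjusted p = 0.0221). Loxl1 over untreated read -1.12 ± 0.49 with control ASO (adjusted p = 0.0733) and -1.64 (adjusted p = 0.00863) without control-ASO mouse 1, which at 2.04 CPM was above the other 5 (0.126 to 0.840); it also passed without untreated mouse 5 (-1.31, adjusted p = 0.0412). Lox, the founding lysyl oxidase, was too low to be tested with the other genes. With no filter on low counts, edgeR called it in no comparison. It had 0 counts in all 4 mice of day 133, 11 over the 5 untreated mice and 22 over the 6 control-ASO mice. In the Smyd3-ASO mice it had 1, 55, 4, 9, 1 and 4 counts, of which mouse 2 held most.

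The small leucine-rich proteoglycans Lum and Bgn bind collagen fibrils. Lum measured 7.19, 7.69, 9.49, 10.3 and 8.68 CPM in untreated livers and ran from 1.82 through 3.75 to 5.18 CPM with control ASO, without overlap. At day 133 it read 5.89, 7.45, 6.87 and 4.26 CPM. The change with control ASO was -1.24 ± 0.22 (adjusted p = 4.16e-04). With Smyd3-ASO it fell by 0.98 (SE 0.25, adjusted p = 0.00522). Bgn fell by 0.57 with control ASO and by 0.68 with Smyd3-ASO, and library totals turned these to 0.27 and 0.21 and ended both Lum calls (-0.37 and -0.04). Bgn was also lower in control ASO than at day 133 (-0.48 ± 0.15, adjusted p = 0.024), a call lost without day 133 mouse 3 or mouse 4 and with library totals (-0.22).

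Matricellular proteins sit in the matrix and signal to cells rather than build it. Sparc, which binds collagen, measured 139, 144, 101, 181 and 83.1 CPM in untreated livers and 46.0, 51.0, 63.4 and 52.4 CPM at day 133, with no overlap (-1.28 ± 0.20, adjusted p = 3.19e-04; lost in one fit over all 4 groups, adjusted p = 0.0698). With control ASO the 6 mice read 40.2, 63.1, 44.6, 368.6, 150.3 and 66.0 CPM, and mice 4 and 5 stood far above the rest. With Smyd3-ASO it ran from 26.1 through 44.2 to 56.4 CPM, below all untreated mice (-1.62 ± 0.23, adjusted p = 9.55e-05). Smyd3-ASO over control ASO gave -1.51 ± 0.52 and did not pass (adjusted p = 0.0504); DESeq2 called it (-1.51, adjusted p = 0.00674), as did one fit over all 4 groups (adjusted p = 0.0151) and leaving out control-ASO mouse 1, 2 or 3.

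Thbs1, thrombospondin 1, which can release TGF-beta from its latent complex, was near the detection limit in untreated livers at 0.536, 0.237, 0.622, 0.580 and 0.668 CPM (2 to 5 counts). It ran from 3.56 through 5.56 to 11.2 CPM with control ASO, above every untreated mouse, and from 0.796 through 4.19 to 20.7 CPM with Smyd3-ASO. It rose by 3.59 ± 0.41 with control ASO (adjusted p = 1.01e-05) and by 3.58 ± 0.81 with Smyd3-ASO (adjusted p = 0.0034; lost in limma voom, adjusted p = 0.0822). At day 133 it read 0.841, 0.508, 0.222 and 5.84 CPM, the last again in mouse 4, and neither day 133 over untreated (1.86 ± 0.76, adjusted p = 0.0789) nor control ASO over day 133 (1.69 ± 0.72, adjusted p = 0.111) passed. Without mouse 4 the latter was 3.58 (adjusted p = 0.00181). Day 133 over untreated passed without mouse 2 (2.18, adjusted p = 0.0476), without mouse 3 (2.19, adjusted p = 0.0318) and with library totals (2.43), all fits that kept mouse 4. The other day 133 mice, at 0.222 to 0.841 CPM, overlapped the untreated mice, at 0.237 to 0.668 CPM. Postn, periostin, was higher in Smyd3-ASO over untreated (1.40 ± 0.49, adjusted p = 0.0321), a call that leaving out any 1 of 6 of the 11 mice ended. Over control ASO it read 0.97 ± 0.38 and did not pass (adjusted p = 0.0751), though DESeq2 (adjusted p = 0.0427), one fit over all 4 groups (adjusted p = 0.0461) and leaving out Smyd3-ASO mouse 3, 4 or 5 called it.

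Among the proteases, Mmp12, the metalloelastase of macrophages, had the largest log2 change of the 39 genes against untreated livers in both ASO groups. It had 1, 0, 1, 0 and 0 counts in the untreated mice and 0, 1, 2 and 4 at day 133. There were 26 to 217 counts with control ASO and 19 to 240 with Smyd3-ASO, which is 3.27 through 6.21 to 17.6 CPM and 1.03 through 3.02 to 9.31 CPM. No ASO mouse overlapped the untreated or day 133 mice. The ratio of summed counts, scaled for depth, was 166 for control ASO over untreated (95% counting interval 45.6 to 1370) and 86.3 for Smyd3-ASO (23.8 to 715). In the fit, the log2 changes were 7.01 ± 0.81 (adjusted p = 2.64e-05) and 6.08 ± 0.92 (adjusted p = 1.83e-04), 4.63 ± 0.80 for control ASO over day 133 (adjusted p = 0.0019) and -0.99 ± 0.56 for Smyd3-ASO over control ASO (adjusted p = 0.209).

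Mmp13, the main interstitial collagenase of rodents, had 0, 0, 1, 1 and 0 counts in untreated mice, 4 over the mice of day 133, 95 over the 6 control-ASO mice and 77 over the 6 Smyd3-ASO mice. Control-ASO mouse 3, with 1 count, overlapped the untreated mice. It rose by 4.36 ± 0.84 with control ASO (adjusted p = 7.45e-04; ratio 26.0, 95% counting interval 7.01 to 218) and by 3.52 ± 0.84 with Smyd3-ASO (adjusted p = 0.00367). Control ASO over day 133 gave 2.71 ± 0.88 (adjusted p = 0.0338), lost when any 1 of 7 of the 10 mice was left out, and 4.21 (adjusted p = 0.0183) without day 133 mouse 3, which held 3 of the 4 counts of its group. Mmp14, a membrane-bound protease that activates Mmp2, measured 8.48, 8.52, 10.1, 6.09 and 17.8 CPM in untreated livers and 12.0, 19.1, 14.0 and 8.20 CPM at day 133. It ran from 17.0 CPM through a median of 34.8 to 48.5 CPM with control ASO and from 18.5 CPM through 28.2 to 36.7 CPM with Smyd3-ASO. Untreated mouse 5 reached into the control-ASO range and no untreated mouse into the Smyd3-ASO range. The changes over untreated were 1.76 ± 0.30 (adjusted p = 4.67e-04) and 1.47 ± 0.27 (adjusted p = 5.9e-04), and control ASO over day 133 gave 1.38 ± 0.29 (adjusted p = 0.0046).

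Mmp2, the gelatinase of stellate cells, went against the other proteases. It measured 8.48, 4.73, 4.05, 8.41 and 2.14 CPM in untreated livers and 1.26, 1.19, 1.33 and 0.789 CPM at day 133, below every untreated mouse. The change was -2.29 ± 0.43 at day 133 (adjusted p = 9.61e-04), -1.55 ± 0.33 with control ASO (adjusted p = 0.00172) and -1.91 ± 0.39 with Smyd3-ASO (adjusted p = 0.00129), of which only day 133 passed with library totals (-1.74). Mmp9, the gelatinase of neutrophils and macrophages, read 0.272 through 0.608 to 0.918 CPM with control ASO and 0.575 through 1.33 to 3.03 CPM with Smyd3-ASO, and the groups overlapped. It was called higher at 1.203 ± 0.41 (adjusted p = 0.0447), on 4 to 13 and 11 to 56 counts per mouse. The call was lost in 9 of the 12 fits that left out 1 mouse, with a highest adjusted p of 0.118, and in 5 alternatives. Over untreated livers Mmp9 was higher with Smyd3-ASO (1.76 ± 0.57, adjusted p = 0.0207), a call lost without untreated mouse 2 (adjusted p = 0.0548) and at equal depth (adjusted p = 0.246). Neutrophil markers summed to 5.21 to 19.7 CPM with control ASO and 9.91 to 105 CPM with Smyd3-ASO, with 1 of 5 called higher (Csf3r) against 13.3% of all genes, and their part in the Mmp9 values was not tested.

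Among the inhibitors, Timp2 was the one that Smyd3-ASO lowered. It measured 22.7, 18.5, 18.7, 18.4 and 17.1 CPM in untreated livers and 16.4, 13.9, 18.4 and 15.9 CPM at day 133. It ran from 17.2 CPM through a median of 21.2 to 25.0 CPM with control ASO and from 9.34 CPM through 12.6 to 14.1 CPM with Smyd3-ASO, below all control-ASO and untreated mice. The change over control ASO was -0.80 ± 0.13 (adjusted p = 9.52e-04), between -0.85 and -0.74 with any 1 mouse left out, and over untreated it was -0.67 ± 0.14 (adjusted p = 0.00163), which library totals turned to 0.22.

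Timp3, the matrix-bound inhibitor, rose in all 3 DEN groups over untreated livers under either scaling. It measured 13.5, 14.8, 12.0, 16.7 and 8.01 CPM in untreated livers and 21.7, 20.2, 21.04 and 32.2 CPM at day 133, and the 2 ranges were separate. The changes were 0.88 ± 0.20 (adjusted p = 0.00454), 0.92 ± 0.20 with control ASO (adjusted p = 0.00175) and 1.11 ± 0.19 with Smyd3-ASO (adjusted p = 3.49e-04), and Smyd3-ASO over control ASO did not pass (0.21 ± 0.17, adjusted p = 0.373). Serpine2, protease nexin 1, which inhibits thrombin and plasminogen activators, measured 1.72, 0.710, 1.87, 1.88 and 0.801 CPM in untreated livers and 33.6, 33.5, 28.1 and 37.9 CPM at day 133. It ran from 3.86 through 10.2 to 17.6 CPM with control ASO and from 6.48 through 17.3 to 46.9 CPM with Smyd3-ASO. Every DEN mouse lay above every untreated mouse. The changes over untreated were 4.58 ± 0.24 (adjusted p = 4.33e-08), 2.83 ± 0.46 (adjusted p = 3.86e-04) and 3.91 ± 0.59 (adjusted p = 2.53e-04); from day 133 to control ASO it fell by 1.75 (SE 0.39, adjusted p = 0.00848), and Smyd3-ASO over control ASO gave 1.09 ± 0.51 (adjusted p = 0.128).

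Timp1, the inhibitor most often followed in fibrosis, was too low to be tested with the other genes. It had 2, 0, 0, 1 and 0 counts in untreated mice, 0 in all 4 mice of day 133, 5, 23, 1, 8, 3 and 13 with control ASO and 6, 16, 40, 15, 2 and 2 with Smyd3-ASO. Scaled for depth, the summed counts with control ASO were 9.69 times those of untreated livers (95% counting interval 3.14 to 48.5), and at least 5.40-fold higher than at day 133 when the latter is set to 3 counts over the group. With no filter on low counts, edgeR gave 3.05 ± 0.84 for control ASO over untreated (adjusted p = 0.00607) and 0.04 ± 0.61 for Smyd3-ASO over control ASO (adjusted p = 0.974).

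For TGF-beta itself the counts were thin. Tgfb2, a ligand, measured 1.18, 0.473, 0.311, 0.725 and 0.134 CPM in untreated livers and 1.26, 0.847, 0.222 and 0.473 CPM at day 133. It ran from 0.953 through 1.61 to 2.14 CPM with control ASO, where 1 untreated mouse overlapped, and was higher by 1.38 ± 0.45 (adjusted p = 0.0212), though not at equal depth (adjusted p = 0.193). The Smyd3-ASO livers, at 0.811 through 1.21 to 2.52 CPM, were higher by 1.24 ± 0.47 (adjusted p = 0.0426), which leaving out any 1 of 7 of the 11 mice ended. Tgfb1 had 31 counts over the untreated mice, 5 at day 133, 18 with control ASO and 60 with Smyd3-ASO, and was not tested with the other genes. These sums are not scaled for depth, and the mean levels were 0.772, 0.258, 0.253 and 0.608 CPM in that order. With no filter on low counts, edgeR called Tgfb1 in no comparison. Smyd3-ASO over control ASO gave 1.20 ± 0.55 (adjusted p = 0.167) and control ASO over untreated -1.54 ± 0.63 (adjusted p = 0.0722). Ltbp1, which stores latent TGF-beta in the matrix, read 1.18, 0.592, 0.934, 0.435 and 1.34 CPM in untreated livers and 0.210, 0.169, 0.665 and 0.631 CPM at day 133, and passed in no comparison.

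Acta2, smooth muscle actin, marks activated stellate cells and vessel walls. It measured 4.18, 4.85, 2.33, 3.77 and 4.94 CPM in untreated livers and 2.94, 2.88, 5.54 and 2.68 CPM at day 133. It ran from 3.60 through 7.98 to 11.9 CPM with control ASO and from 1.87 through 4.02 to 6.05 CPM with Smyd3-ASO, and all groups overlapped. Control ASO over untreated gave 0.90 ± 0.33 (adjusted p = 0.0355), lost in 6 of 11 fits that left out 1 mouse and in limma voom (adjusted p = 0.111). Control ASO over day 133 gave 1.13 ± 0.39 (adjusted p = 0.0463), lost in 7 of 10 such fits. The latter call was also lost with no filter (adjusted p = 0.0643), in limma voom (0.145), at equal depth (0.0608) and with replicate number as a block (0.195). Smyd3-ASO over control ASO did not pass at -0.95 ± 0.36 (adjusted p = 0.0626), though DESeq2 (adjusted p = 0.0342) and one fit over all 4 groups (adjusted p = 0.028) called it, as did leaving out control-ASO mouse 2 or 3 or Smyd3-ASO mouse 2.

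Mice within a group did not keep 1 order over these genes, but some stood at an end more often than others. Smyd3-ASO mouse 2 was the highest of its 6 in 16 of the 39 genes and mouse 3 the lowest in 16. Control-ASO mouse 2 was the highest of its group in 15 and mouse 3 the lowest in 16, and untreated mouse 5 was the lowest of its 5 in 19. By group mean, untreated livers were the highest of the 4 groups in 22 of the 39 genes and day 133 livers the lowest in 16. The share over all genes was not counted, so this order is not read as particular to the matrix genes. These means use TMM, and with library totals 17 of the 39 genes were called higher and 1 lower in control ASO over untreated.

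**Figure D4:**
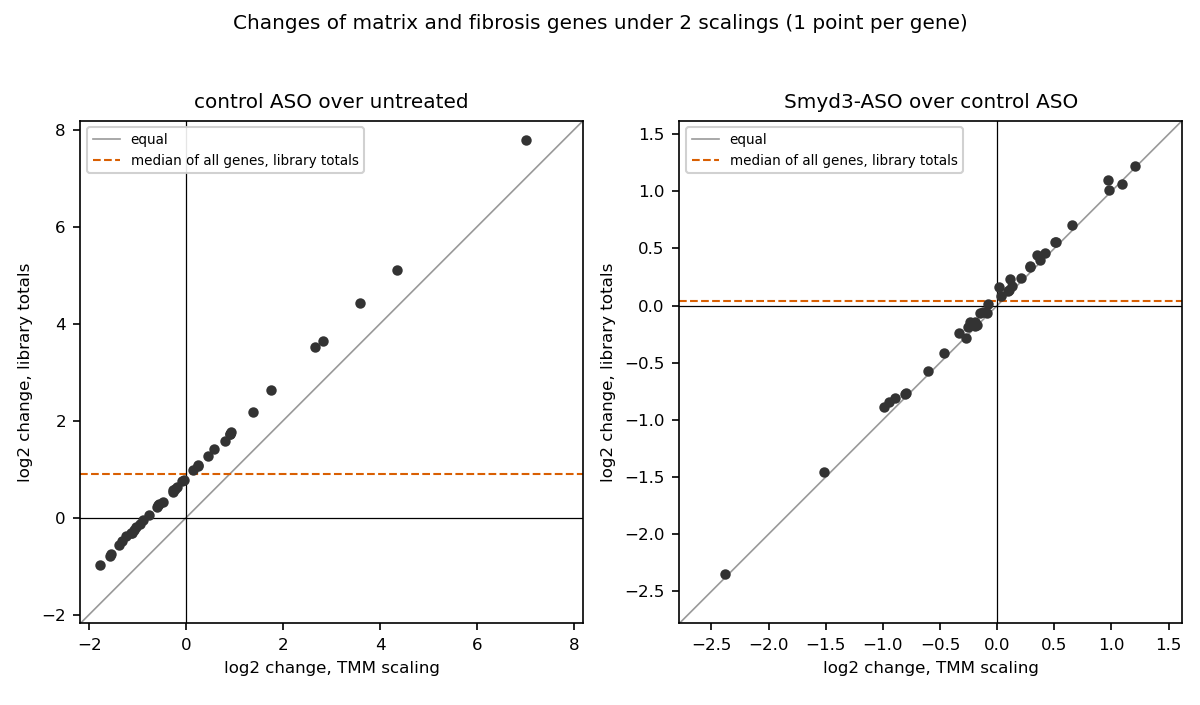
Log2 change of each of the 39 genes under TMM (x axis) and under library totals (y axis), for control ASO over untreated (left) and Smyd3-ASO over control ASO (right); the grey line marks equal values and the dashed line the median of all genes under library totals, 0.90 and 0.04. On the left every gene is shifted up and many cross from below 0 to above it, and on the right the points stay close to the line.

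Other genes of the same pathways were followed in lists drawn up with earlier results of these data known. In the TGF-beta pathway under Smyd3-ASO over control ASO, 9 of 24 measured genes were lower and 1 was higher, against 12.9% and 13.3% of all genes, with a median of -0.33. The lower genes with the smallest adjusted p were Ltbp4, which stores latent TGF-beta (-1.19 ± 0.16, adjusted p = 1.95e-04), the inhibitory Smad6 (-1.50 ± 0.24, adjusted p = 6.36e-04) and the signal carrier Smad3 (-0.91 ± 0.20, adjusted p = 0.00486). The exception was Itgb8, an integrin that activates TGF-beta (1.63 ± 0.48, adjusted p = 0.0214). In control ASO over untreated, 7 were higher and 3 lower, against 23.7% and 22.2% of all genes, and the higher genes with the smallest adjusted p were Smurf2 (0.69 ± 0.10), Tgif1 (1.07 ± 0.21) and the receptor Tgfbr2 (0.96 ± 0.20). The lower genes were the co-receptor Eng, the inhibitory Smad7 and Bambi, a decoy receptor.

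Collagen maturation enzymes were lower in 7 of 21 and higher in 1 with Smyd3-ASO over control ASO. For this and the next 3 lists, 12.9% of all genes were lower and 13.3% higher in that comparison. Ppib, a prolyl isomerase, changed by -0.99 ± 0.15 (adjusted p = 3.72e-04), and Pcolce and Pcolce2, enhancers of procollagen trimming, by -1.28 ± 0.22 (adjusted p = 0.00113) and -1.72 ± 0.33 (adjusted p = 0.00208). Sec23a, a coat protein for procollagen export, went up (0.67 ± 0.14, adjusted p = 0.00355). Matrix receptors were lower in 6 of 16 and higher in 1 with Smyd3-ASO. Itgb1, the common chain of collagen and laminin receptors, changed by -0.84 ± 0.13 (adjusted p = 5.98e-04), Itga6 of the laminin receptor by -1.24 ± 0.27 (adjusted p = 0.00434) and Sdc2 by -0.75 ± 0.18 (adjusted p = 0.00884), while the hyaluronan receptor Cd44 was higher (0.78 ± 0.24, adjusted p = 0.031). Among 26 other matrix proteins, Fn1, fibronectin, was lower (-0.80 ± 0.23, adjusted p = 0.0194) with Lama4, and Efemp1 was higher. Among 19 other proteases and inhibitors, Adamts7 (-3.24 ± 0.59, adjusted p = 0.00206), Adamts10 and Mmp15 were lower and Plaur was higher. In control ASO over untreated, 8 of the 26 other matrix proteins were higher and 5 lower, near the 23.7% and 22.2% of all genes, with Ecm1 (-1.22 ± 0.14) and Vtn (-1.60 ± 0.27), both secreted by hepatocytes, and Smoc2 (1.72 ± 0.31) at the smallest adjusted p.

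In bulk liver, fewer cells of a type and less RNA per cell cannot be told apart. Stellate cell markers, 16 of which were measured, overlapped in all groups. Their summed level ran from 248 to 315 CPM in untreated livers, 265 to 285 CPM at day 133, 264 to 335 CPM with control ASO and 236 to 318 CPM with Smyd3-ASO. In control ASO over untreated 2 of the 16 were higher (Reln, Rgs5) and 5 lower (Ngfr, Angptl6, Lrat, Lhx2, Hand2), against 23.7% and 22.2% of all genes. In Smyd3-ASO over control ASO 4 were higher (Ednrb, Hand2, Lhx2, Rgs5) and 1 lower (Reln), against 13.3% and 12.9% of all genes. The part of stellate cells in the collagen changes was not tested. Macrophages make Mmp12. The summed level of the monocyte and recruited macrophage markers was 48.1 to 81.9 CPM in untreated livers, 83.9 to 103 CPM at day 133, 65.2 to 156 CPM with control ASO and 127 to 209 CPM with Smyd3-ASO, and the control-ASO and untreated ranges overlapped. Of the 11 markers, 2 were higher at day 133 over untreated (15.1% of all genes), 6 were higher and 1 lower with control ASO (23.7% and 22.2%), 9 were higher with Smyd3-ASO (24.4%) and 4 were higher in Smyd3-ASO over control ASO (13.3%). Of the 11, 1 marker (Gpnmb) was at 0 counts in every untreated mouse, and the others had counts in that group. Markers of Kupffer cells, the resident macrophages, summed to 309 to 552 CPM in untreated livers and 351 to 517 CPM at day 133. They summed to 195 to 429 CPM with control ASO and 314 to 626 CPM with Smyd3-ASO. Of these 11, 3 were higher and 2 lower at day 133 over untreated (15.1% and 16.6% of all genes). With control ASO 0 were higher and 6 lower (23.7% and 22.2%), and with Smyd3-ASO 4 and 5 (24.4% and 23.2%). In Smyd3-ASO over control ASO 3 were higher (13.3%). The part of macrophages in the protease changes was not tested.

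The summed level of bile duct markers was 18.02 to 34.9 CPM in untreated livers, 26.2 to 51.5 CPM at day 133, 113 to 236 CPM with control ASO and 46.8 to 75.9 CPM with Smyd3-ASO, so that, as for Nid1, the control-ASO mice lay above the other 3 groups. The Smyd3-ASO mice lay above the untreated mice here. Of the 7 measured, 4 were higher in control ASO over untreated (Tspan8, Sox9, Spp1, Cldn7), against 23.7% of all genes. In Smyd3-ASO over control ASO Tspan8 and Spp1 were lower, Epcam was higher and the other 4 did not pass, against 12.9% lower and 13.3% higher of all genes. Markers of sinusoidal endothelium summed to 319 to 454 CPM in untreated livers, 331 to 376 CPM at day 133, 267 to 360 CPM with control ASO and 252 to 307 CPM with Smyd3-ASO, and 4 of 13 were lower with Smyd3-ASO over control ASO (Dnase1l3, Fcgr2b, Stab2, Oit3), against 12.9% of all genes. Hepatocyte markers summed to 75267 to 121082 CPM with control ASO and 30025 to 58852 CPM with Smyd3-ASO, and 6 of 10 were lower and 1 higher (Cyp2e1), against the same 12.9% and 13.3%, with Ahsg at -2.25 ± 0.25 (adjusted p = 6.09e-05). Their part in the changes of Nid1, Col18a1 and Timp2 was not tested. Markers of portal fibroblasts, smooth muscle and mesothelial cells, the other sources of matrix, overlapped between control ASO and Smyd3-ASO, at 62.9 to 115 and 67.5 to 232 CPM, 90.7 to 171 and 96.9 to 195 CPM, and 3.22 to 7.62 and 1.26 to 7.76 CPM. The median sum for portal fibroblasts was 77.3 CPM with control ASO and 134 CPM with Smyd3-ASO. Of their 8 measured markers, 2 were higher and 1 lower in Smyd3-ASO over control ASO, against 13.3% and 12.9% of all genes. Of the 5 smooth muscle and 4 mesothelial markers measured, 0 were called.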

How the data were processed

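Total RNA of 21 livers was sequenced with the QuantSeq 3' kit as 35 libraries, per the labels' protocols. The submitters' processing notes name HISAT2 2.1.0, the mm10 build and DESeq. The counting program, its annotation and its use of strand are not given in the sources used here. The authors deposited raw counts per Ensembl gene and mouse, with repeat libraries of an ASO mouse merged, and these were used as deposited. A second deposited table of normalized values was not used. Ids were matched to GENCODE vM21 (55413 of 55413).

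Genes were kept with edgeR's filterByExpr over the 4 groups (15297 genes). Each comparison was fitted in edgeR 4.0.16 (R 4.3.3) on the counts of its 2 groups only, with TMM scaling, robust quasi-likelihood dispersions and two-sided tests, Benjamini-Hochberg adjusted, at 0.05. The standard error is the log2 change over the square root of F. The p-values measure the spread between mice. CPM levels use TMM over all 21 mice. Counting intervals are exact, at 95%, and cover counting error only. The script was tested on simulated data. Alternatives were no filter, library totals, DESeq2 1.42.0, limma 3.58.1 voom, one fit over 4 groups, thinning to equal depth, a replicate block and leaving out each mouse.

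The genes and lists were chosen with earlier results of these data known. Of the listed genes, values per mouse were given for those called in Smyd3-ASO over control ASO and for the 2 per role with the smallest p in control ASO and in day 133 over untreated, and in other lists the 3 smallest adjusted p were named, with genes against the rest or in counts of 5 or fewer. Values per mouse of Col1a1, Timp1 and Lox were added after they were seen.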

Additional observations from a re-analysis of the deposited data

Results flagged for a closer look

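In 156 groups of mice (39 genes in 4 groups), 15 had a highest or lowest mouse whose gap to the nearest mouse exceeded the 95% limit for an outlying value. For independent, normally distributed values that limit flags about 1 in 20. CPM values of few counts need not be normal and the genes share mice, so the 15 are not read as an excess. At day 133, mouse 4 stood apart for Col1a1 (39.9 CPM, next 4.43), Thbs1 (5.84 CPM), Timp3 (32.2 CPM), Col6a1 (0.473 CPM, lowest) and Nid1 (3.31 CPM, lowest), and mouse 3 for Fbn1 (2.66 CPM) and Acta2 (5.54 CPM). With control ASO, mouse 2 stood apart for Col1a2 (25.2 CPM) and Col6a2 (3.39 CPM), mouse 3 for Fbln5 (0.880 CPM, lowest), mouse 1 for Loxl1 (2.04 CPM) and mouse 4 for Sparc (368.6 CPM). With Smyd3-ASO, mouse 2 stood apart for Col1a1 (86.7 CPM) and Thbs1 (20.7 CPM). Among untreated mice, mouse 1 stood apart for Timp2 (22.7 CPM). For Col1a1 in both comparisons with day 133, and for Thbs1 in control ASO over day 133, the changes with and without mouse 4 are given above. Thbs1 in day 133 over untreated is given only with that mouse.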

How the results depend on the processing

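Of 79 calls over the 39 genes and 5 comparisons, 59 held with any 1 mouse left out, 35 under every alternative and 52 under every alternative other than library totals. With library totals, the genes called higher and lower became 17 and 1 in control ASO over untreated, 7 and 7 in day 133 over untreated, 15 higher in control ASO over day 133, 2 lower in Smyd3-ASO over untreated and 1 higher in Smyd3-ASO over control ASO, and all genes called became 10723 in control ASO and 7292 in day 133 over untreated. Among genes called under either scaling, library totals reversed, in control ASO over untreated, Col5a2 (0.77), Col18a1 (0.58), Col4a1 (0.26), Fbln5 (0.0564) and Bgn (0.27), and, in Smyd3-ASO over untreated, Col6a2 (0.0804), Col14a1 (0.15), Col18a1 (0.00903), Col4a1 (0.39), Col4a2 (0.00358), Fbln5 (0.14), Bgn (0.21) and Timp2 (0.22). In Smyd3-ASO over control ASO, 1 gene was higher with no filter, with limma voom and at equal depth, and 5 were lower with DESeq2 and with one fit over 4 groups. At equal depth, 2382 genes in all were called there and 4761 in Smyd3-ASO over untreated, from fewer counts. In control ASO over day 133, limma voom called 5 higher. The causes of the other shifts were not tested.

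Leaving out 1 mouse gave 1 to 3 higher, 3 to 5 lower and 3233 to 4446 genes in all in Smyd3-ASO over control ASO, 8 to 9, 9 to 16 and 6208 to 6886 in control ASO over untreated, 8 to 11, 12 to 17 and 6434 to 7502 in Smyd3-ASO over untreated, 3 to 4, 9 to 13 and 3977 to 4947 in day 133 over untreated, and 5 to 11, 2 to 4 and 3137 to 4318 in control ASO over day 133. In the first, the higher count moved by more than 1.5 times without control-ASO mouse 1, 3, 4 or 6 or Smyd3-ASO mouse 1, 2 or 6, and the lower count without control-ASO mouse 2 or 3. The replicate numbers do not pair the mice: same-numbered mice correlated at -0.12 to 0.11 in their deviations over the 5 comparisons. With the number as a block, 5, 21, 23, 16 and 7 of the 39 genes were called in the order above, against 5, 22, 26, 14 and 12 without it, and control ASO over day 133 had 5 higher and 2530 genes in all.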
